A study of Homo sapiens with 6 samples.

Results

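The comparison described here sets 10 µM PTUPB against its DMSO control, 1 RNA-seq library on each side, in C4-2B MDVR cells treated for 2 days. C4-2B MDVR cells are a human prostate cancer line, derived from C4-2B, that resists enzalutamide, and PTUPB is a single molecule that inhibits both cyclooxygenase-2 and soluble epoxide hydrolase. Members are the 12960 of 58735 genes in the deposited table whose FPKM (fragments per kilobase of exon, scaled for depth) averaged 1 or more over 6 libraries, and 27414 genes were 0 in all of them. CFAP20DC lay just inside that limit (mean 1.00 FPKM, log2 difference -0.004) and ZNF790 just outside it (mean 0.99996 FPKM, log2 difference 0.19). A difference is log2(FPKM + 1) with 10 µM PTUPB minus the same value in control, which understates the change of genes with low FPKM.

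The other 4 libraries, also from C4-2B MDVR cells at 2 days, were 20 µM PTUPB, 20 µM enzalutamide, and 10 or 20 µM PTUPB together with enzalutamide at a dose that the labels do not give (called here the 10 and 20 µM combinations). Enzalutamide is an antiandrogen. With 1 library a group, no difference below has a replicate check or a p-value. As a second reading of the same dose, the 10 µM combination was set against enzalutamide alone, a pair that shares no library with the first.

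Cyclooxygenases turn arachidonic acid into prostaglandins, while cytochrome P450 enzymes turn it into epoxy fatty acids that soluble epoxide hydrolase then degrades. Blocking both enzymes lowers prostaglandins and spares the epoxy fatty acids. Prostate cancer cells of the luminal kind depend on androgen signalling, and they are known for high lipid synthesis.

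The libraries held 20156523 to 29450436 recovered fragments (27337933 in control and 28848961 with 10 µM PTUPB). Mitochondrially encoded genes took 6.47% of fragments in control, 12.4% with 10 µM PTUPB, 12.2% with enzalutamide, 13.8% in the 10 µM combination, and 5.83% and 7.12% in the 20 µM libraries without and with enzalutamide. All 12 luminal prostate markers were at 1 FPKM or more in both the control and the 10 µM PTUPB library, and their sums were 1291 and 1250.0. None of the 5 basal, 5 endothelial, 6 blood or 5 neuroendocrine markers reached 1 FPKM in either library, and of 7 stromal markers COL1A1 alone did (2.38 and 3.11).

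The control library stood apart in a set of transcripts. In it, 39 genes (34 of them protein-coding) had at least 30 fragments and at least 10 times as many as in any other library, a rule chosen after the values were seen. By the same rule the 10 µM PTUPB, enzalutamide and 10 µM combination libraries had 0 such genes, and the 20 µM libraries without and with enzalutamide had 22 and 4. Among the control's were CD44 (505 fragments against at most 15 elsewhere), the retinaldehyde dehydrogenase gene ALDH1A1 (369 against at most 12), the collagen gene COL1A2 (204 against at most 4) and COL3A1 (106 against at most 6). The basal marker TP63 was also among them, with 51 fragments against at most 3 elsewhere, though at only 0.229 FPKM in control. ENSG00000281383, a noncoding gene on chromosome 21, was at 32.1 FPKM in control and between 1.15 and 1.94 in the other 5 libraries. The 34 protein-coding genes all averaged below 1 FPKM over the 6 libraries. They are therefore not members and enter none of the member counts or list medians below, including the counts of lower genes. MT1E, for example, was at 5.12 FPKM in control and 0.0965 with 10 µM PTUPB. What part the control library's own content has in the results below was not tested. List counts and most genes below are therefore given beside the pair that does not use it.

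**Figure D1:**
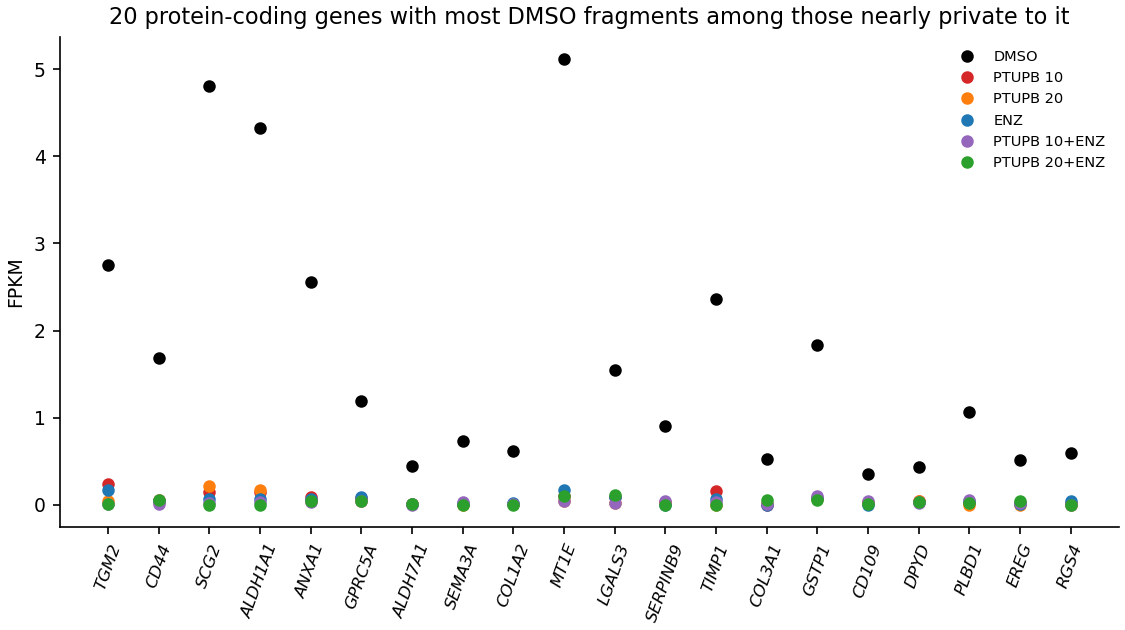
FPKM in each of the 6 libraries (one colour a library) for 20 protein-coding genes found mainly in the control library, ordered by their fragments there. The control points stand between 0.352 and 5.12 FPKM and all others near 0.

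Most genes differed little. Of the 12960 members, 89.2% lay within log2 0.5 of equality and the median was -0.03. By log2 1 or more, 210 genes were higher with 10 µM PTUPB (1.62%) and 100 were lower (0.772%), so 67.7% of the counted genes were higher. Any difference above 0 was found in 45.4% of members and any below 0 in 54.4%. Rescaling each library to a common sum (TPM) moved the median of all members to -0.33 and gave 227 higher and 342 lower, or 39.9% higher. The deposited FPKM summed to 264004 in control and 327486 with 10 µM PTUPB. List counts above and below 0 are given as deposited, and where TPM turns the balance of a list in the main pair this is said. In the second pair the sums were 355658 with enzalutamide and 337988 in the 10 µM combination, so TPM raises every ratio there. A list median is to be read beside that of all members.

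Small RNAs made up most of the counted genes. The 415 small and ribosomal RNA genes supplied 169 of the 310, at a median of 11 fragments in the higher library, and 217 of the 310 had fewer than 50 fragments there. Of 101 miRNA genes, 22 were higher and 24 lower, at a median of 9 fragments. Among 10693 protein-coding genes, 29 were higher (0.271%) and 20 lower (0.187%), at a median of 753 fragments. These 49 genes carry the account that follows.

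**Figure D2:**
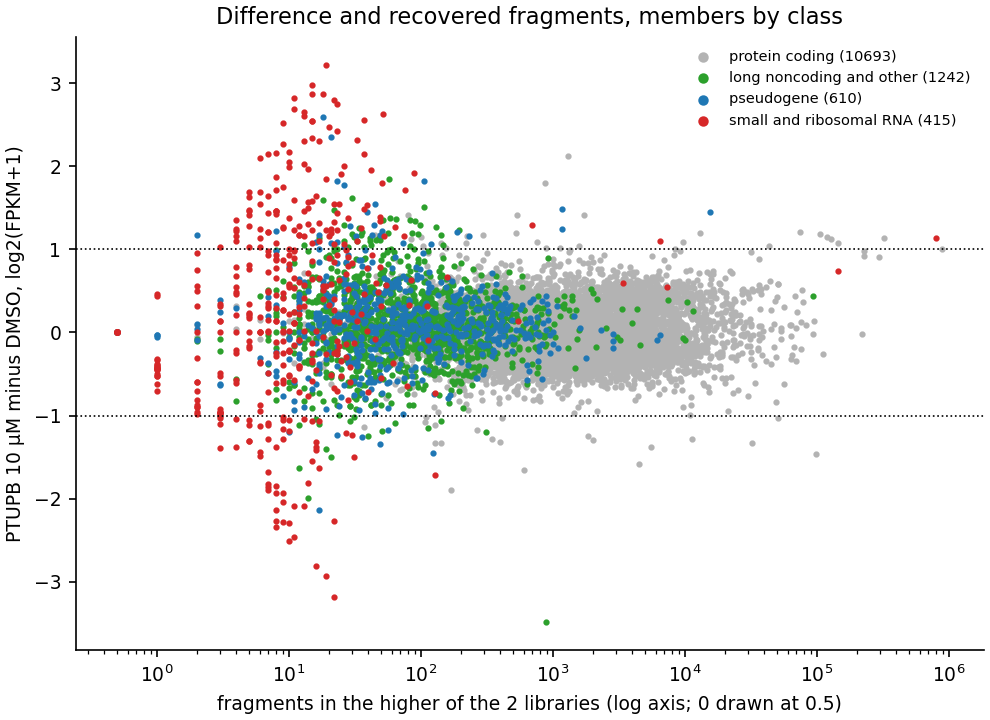
Difference between the 10 µM PTUPB and control libraries (vertical axis, log2(FPKM+1)) against the fragments in the higher of these 2 libraries (horizontal log axis), 1 point a member, coloured by gene class. Dotted lines mark log2 1 in each direction. The spread widens to the left, where the small RNA genes lie, and above 1000 fragments nearly all points are protein-coding genes between the lines.

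Genes of energy and lipid metabolism were among the largest differences on the lower side. FASN (chr17:82078333-82098332, GRCh38), which encodes fatty acid synthase, stood at 350 FPKM in control, 126 with 10 µM PTUPB and 33.3 with 20 µM. With enzalutamide it was 212 FPKM, and 104 and 26.3 in the 10 and 20 µM combinations. FASN was thus lower with PTUPB than without it at both doses and on both backgrounds. In the main pair it was 2.78-fold lower (95% counting interval 2.74 to 2.81), from 98075 and 34937 fragments. Here and below, such intervals are exact for the counts of 2 libraries and cover counting error only. They do not cover the choice of scaling. Because the deposited FPKM sums differ (264004 in control, 327486 with 10 µM PTUPB), TPM lowers every ratio of 10 µM PTUPB to control by the same factor. Folds higher in the main pair then shrink and folds lower in it grow.

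The other genes of fatty acid synthesis did not move as far. Of 28 members of that list, 13 were above 0 and 15 below 0, with a median of -0.02, and FASN was the only one past log2 1. The second pair had 8 above 0 and 20 below 0 (median -0.22), and the main pair after TPM 5 above 0 and 23 below 0. ACLY, which makes cytosolic acetyl-CoA, was at 130 FPKM in control and 88.6 with 10 µM PTUPB, then 100.5 and 80.5 in the second pair. ACSS2, which makes it from acetate, was at 15.2 and 10.0 FPKM, then 11.8 and 10.9. SREBF1, whose product activates these genes, was at 115 and 113 FPKM, then 124 and 98.6, and the desaturase gene SCD at 293 and 259, then 348 and 222. The 24 cholesterol synthesis and uptake genes were also divided, 13 above 0 and 11 below 0 (median 0.06), and 4 above 0 and 20 below 0 after TPM. In the second pair 6 were above 0 and 18 below 0 (median -0.21).

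Glycolysis genes were lower as a group. Of 23 members, 22 were below 0 in the main pair, against 54.4% of all members, and the median was -0.58. PGK1 (chrX:77910739-78129296), which encodes phosphoglycerate kinase, was at 195 FPKM in control, 76.8 with 10 µM PTUPB and 49.6 with 20 µM, and at 94.2, 52.1 and 52.7 FPKM with enzalutamide and in the 10 and 20 µM combinations. LDHA, which encodes the lactate dehydrogenase A chain, was at 114, 58.7 and 14.995 FPKM in the first 3 libraries, in that order, and at 59.0, 31.9 and 16.8 in the other 3. In both genes the control library was the highest of the 6 and each library with 10 µM PTUPB was below its own comparator. PGK1 was 2.53-fold lower in the main pair (interval 2.48 to 2.59) and 1.81-fold lower in the second, and LDHA 1.94-fold and 1.85-fold lower. Both genes have processed pseudogenes with which reads may be shared.

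Other steps of the pathway followed. The enolase gene ENO1 was at 313 and 175 FPKM in the main pair and at 199 and 130 in the second, the pyruvate kinase gene PKM at 132 and 86.8, then 102 and 64.7. GAPDH was at 631 and 412 FPKM, then 453 and 363. The regulatory enzyme gene PFKFB4 was at 7.92 and 3.55 FPKM, then 3.86 and 2.97. The glucose transporter gene SLC2A1 was nearly level (22.5 and 21.03 FPKM, then 22.7 and 21.7). The lactate transporter gene SLC16A1 was the 1 member above 0, at 71.9 and 99.9, then 104 and 110.3. In the second pair 20 of 23 glycolysis genes were below 0, where 56.6% of all members were, and their median was -0.38 against -0.05 for all members.

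Hypoxia-responsive genes outside glycolysis were mostly lower, with 19 of 22 below 0 (median -0.36), and 17 of 22 in the second pair (median -0.19). NDRG1, a stress-responsive gene, was at 18.9 FPKM in control and 6.65 with 10 µM PTUPB, and at 7.86 and 4.87 in the second pair. CA9, which encodes a cell-surface carbonic anhydrase, was at 2.82 and 0.527 FPKM, then 2.65 and 0.227, and 0 in both 20 µM libraries. The mitophagy receptor gene BNIP3 was at 69.0 and 34.0 FPKM, then 38.8 and 23.8. The angiogenic factor gene VEGFA did not follow them: it was at 24.9 and 22.1 FPKM in the main pair and higher in the second, at 22.5 and 33.6. Of 28 tricarboxylic acid cycle and pyruvate genes, 27 were below 0 (median -0.21), and 26 in the second pair (median -0.31). DLAT, of the pyruvate dehydrogenase complex, was at 22.5 and 15.8 FPKM, then 17.8 and 13.1.

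The promoters of PGK1 and LDHA are shown because these genes had the largest and the third largest difference of the glycolysis list, and because the core of the hypoxia response element, ACGTG, recurs in them. Capitals mark ACGTG on either strand, where CACGTG is 2 matches that overlap. Each covers 250 bases before to 50 after the RefSeq start, on the plus strand of GRCh38.p14. PGK1 is chrX:78103998-78104297, with 3 matches, and LDHA is the first of its 2 listed starts, chr11:18394313-18394612, with 5, while the other start had 0.
PGK1: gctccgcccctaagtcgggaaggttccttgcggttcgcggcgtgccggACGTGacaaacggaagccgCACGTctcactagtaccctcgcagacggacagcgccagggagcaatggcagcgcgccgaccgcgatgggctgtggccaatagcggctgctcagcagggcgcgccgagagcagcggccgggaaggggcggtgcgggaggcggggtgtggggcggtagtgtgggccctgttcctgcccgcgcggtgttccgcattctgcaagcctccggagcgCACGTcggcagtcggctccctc
LDHA: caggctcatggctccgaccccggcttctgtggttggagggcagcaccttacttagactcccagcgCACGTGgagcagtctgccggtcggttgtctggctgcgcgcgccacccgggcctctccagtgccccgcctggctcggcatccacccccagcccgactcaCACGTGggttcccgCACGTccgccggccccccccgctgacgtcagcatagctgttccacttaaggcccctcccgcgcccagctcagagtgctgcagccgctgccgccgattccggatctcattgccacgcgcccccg
ACGTG was found in 14 of 22 glycolysis genes with a listed promoter in those of 24.9% of all 27305 genes, and in 21.4% of all 35116 promoters of this length. The median difference was -0.60 for the glycolysis genes with a match and -0.56 for those without.

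Mitochondrially encoded mRNAs were higher with 10 µM PTUPB than in control, all 13 of them, and 8 by log2 1 or more (median 1.07). After TPM all 13 were still above 0 but none reached log2 1 (median 0.76), and 6 did after scaling to total fragments. They encode subunits of the respiratory chain and ATP synthase. MT-CO1 was at 9808 FPKM in control and 19613 with 10 µM PTUPB, at 8108 with 20 µM, at 23260.0 with enzalutamide, and at 22549 and 8302 in the 10 and 20 µM combinations. MT-ND4L was at 3684 and 8500.1 FPKM in the main pair and at 8948 and 9059 in the second. The control library was thus low beside the enzalutamide and both 10 µM libraries, and near the 20 µM ones. In the second pair the mRNAs were nearly level: 9 of 13 were above 0 and the median was 0.05. The mitochondrial ribosomal RNA MT-RNR2 was at 7802 and 17179.8 FPKM, then 14458 and 17743. Reads from these genes may be shared with nuclear copies of mitochondrial DNA.

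The nuclear genes of the respiratory chain did not share that difference. Of 39, 16 were above 0 and 23 below 0 in the main pair (median -0.10), and 1 and 38 after TPM. With enzalutamide on both sides, 36 of 39 were below 0 (median -0.38). COX6C, a cytochrome c oxidase subunit gene, was at 48.2 and 63.3 FPKM in the main pair, the list's largest difference above 0, and went the other way in the second, at 69.0 and 59.1. Genes of mitochondrial transcription, replication and import were also divided, 7 above 0 and 15 below 0 of 22, then 5 and 17.

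Chaperone genes of the endoplasmic reticulum and of the unfolded protein response were slightly higher nearly throughout, with 32 of 33 above 0 and a median of 0.50, and none reached log2 1. HSPA5, which encodes the main chaperone of the reticulum, was at 294 FPKM in control and 440 with 10 µM PTUPB, and at 403 and 574 in the second pair. In the 20 µM libraries it was at 5919 and 10392 FPKM, far above the rest. HYOU1, another reticulum chaperone gene, was at 42.8 and 72.1 FPKM, then 60.9 and 71.3, and SEL1L, which acts in the disposal of misfolded proteins, at 27.3 and 45.6, then 38.2 and 48.8. The calreticulin gene CALR was at 466 and 563 FPKM in the main pair, and lower in the second, at 578 and 408. The second pair had 17 of 33 above 0, and the median was 0.00. For enzalutamide alone against control the median was 0.33. The median FPKM of the 33 genes was 27.3 in control, 39.7 with 10 µM PTUPB, 38.2 with enzalutamide and 39.8 in the 10 µM combination. After TPM, 22 of 33 were above 0, with a median of 0.20 where that of all members was -0.33.

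The promoters of HSPA5 and HYOU1 are shown as those of genes in this list with an endoplasmic reticulum stress element in reach of the start. Capitals mark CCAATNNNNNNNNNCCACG in HSPA5 (chr9:125241294-125241593, minus strand) and the second form of the element, ATTGGNCCACG, in HYOU1 (chr11:119057156-119057455, minus strand), where both of its matches lie on the strand opposite to the one printed. Build, source and window are as above.
HSPA5: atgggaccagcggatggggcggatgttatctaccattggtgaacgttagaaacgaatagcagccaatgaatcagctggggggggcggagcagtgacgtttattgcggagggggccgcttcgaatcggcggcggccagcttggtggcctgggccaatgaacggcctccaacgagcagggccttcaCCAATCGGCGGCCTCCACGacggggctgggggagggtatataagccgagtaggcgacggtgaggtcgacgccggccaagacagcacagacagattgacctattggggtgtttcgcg
HYOU1: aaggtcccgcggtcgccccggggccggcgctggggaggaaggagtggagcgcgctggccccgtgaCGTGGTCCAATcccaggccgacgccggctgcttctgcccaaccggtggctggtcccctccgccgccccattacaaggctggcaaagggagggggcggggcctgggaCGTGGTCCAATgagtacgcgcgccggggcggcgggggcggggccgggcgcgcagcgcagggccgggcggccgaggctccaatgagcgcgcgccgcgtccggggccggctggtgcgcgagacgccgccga
The first form was found in 8 of 31 genes of the list with a promoter in 0.0916% of all genes, and in 27 of 35116 promoters (0.0769%). The second was found in 3 of 31, in 0.0696% of all genes, and in 19 promoters (0.0541%). Differences did not separate the genes by the element: the median was 0.45 with the first form and 0.50 without it.

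Amino acid response genes driven by ATF4 leaned higher in both pairs. Of 36, 28 were above 0 in the main pair (median 0.22) and 34 in the second (median 0.35), against 45.4% and 43.1% of all members. Enzalutamide alone against control had a median of 0.43. SLC7A11 (chr4:138164097-138242349), the cystine importer gene, was at 15.6 FPKM in control, 34.1 with 10 µM PTUPB and 69.97 with 20 µM, and at 25.1, 42.4 and 28.7 with enzalutamide and in the 10 and 20 µM combinations. It was 2.19-fold higher in the main pair (interval 2.12 to 2.27) and 1.69-fold higher in the second. The glutathione-degrading enzyme gene CHAC1 was at 4.10 and 7.13 FPKM, then 7.98 and 16.03. The stress factor gene DDIT3 was at 15.97 and 26.1 FPKM, then 23.5 and 42.997, and at 359 and 440 FPKM in the 20 µM libraries. ATF3, another stress factor gene, was nearly level in the main pair at 4.62 and 5.08 FPKM, with a fold of 1.10 whose interval, 0.979 to 1.24, spans 1. After TPM 14 of 36 were above 0 in the main pair, with a median of -0.087 beside the -0.33 of all members.

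Lysosomal genes were above 0 in 31 of 35 in the main pair (median 0.44), and antigen presentation genes of class I in 11 of 11 (median 0.37). With enzalutamide alone against the same control the medians were 0.50 and 0.56, so these differences were not particular to PTUPB. The lysosomal membrane gene LAMP1 was at 28.3 and 41.9 FPKM, then 43.1 and 45.3. B2M, which encodes the light chain of class I molecules, was at 41.1 and 60.6 FPKM in the main pair and at 59.9 in both libraries of the second. As with the reticulum list, neither held in the second pair, where 18 of 35 and 5 of 11 were above 0 (medians 0.03 and -0.02). The class I count there was 6 of 11 after TPM (median 0.05). After TPM, 22 of 35 and 8 of 11 were above 0 in the main pair. GPNMB, a glycoprotein gene of the lysosomal list, was an exception, higher in both pairs at 1.93 and 4.93, then 2.83 and 10.7 FPKM.

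**Figure D3:**
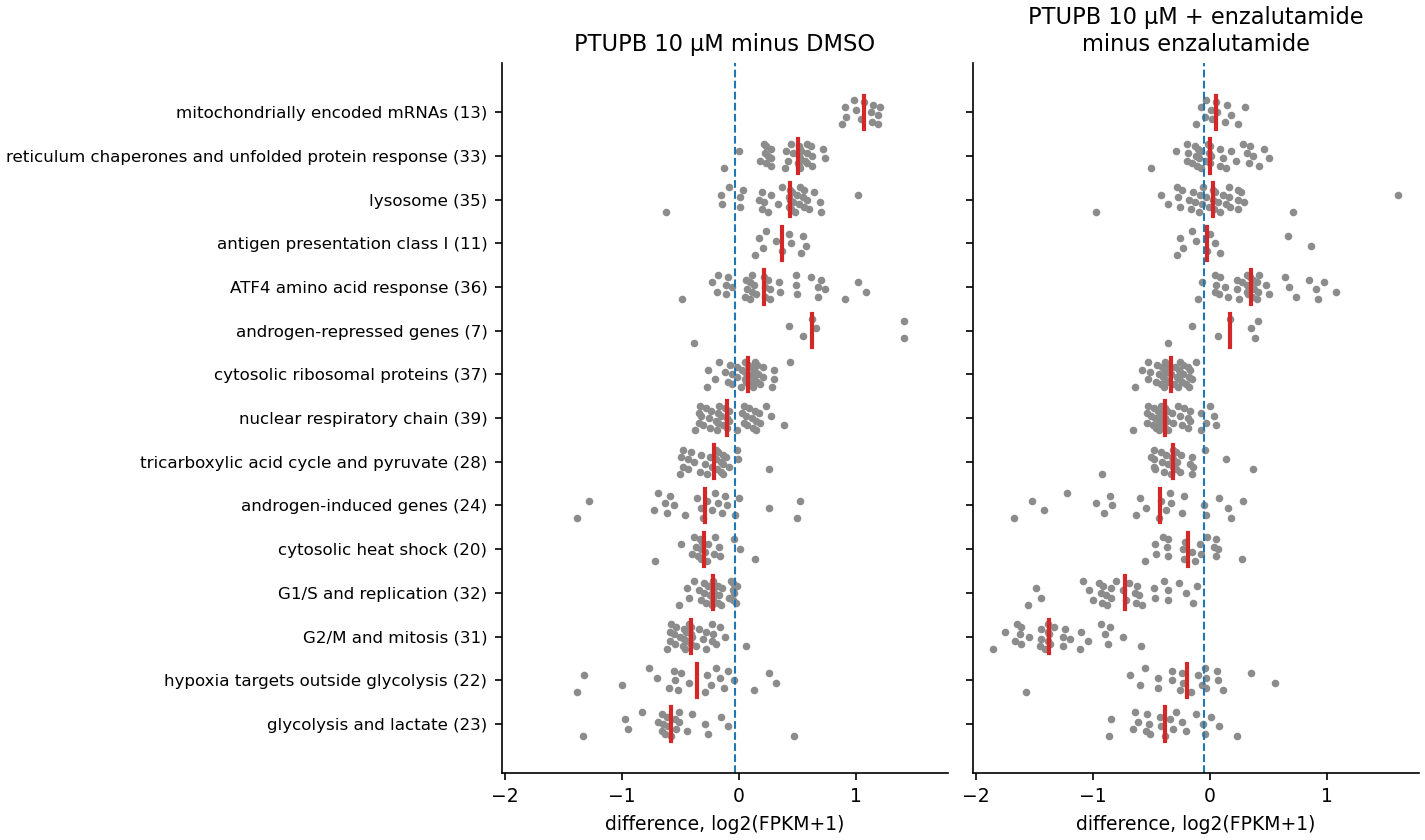
Differences of list members (grey points, 1 a gene) with list medians (red bars) for the main pair (left) and for the pair with enzalutamide (right), in log2(FPKM+1). The dashed line is the median of all 12960 members, -0.03 and -0.05, and the number of members of each list is in brackets. Mitochondrially encoded, reticulum, lysosomal and class I genes lie to the right of the line in the left panel and around it in the right one, while glycolysis genes lie to its left in both.

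Cell cycle genes were slightly lower in the main pair and much lower in the second. All 32 G1/S and replication genes were below 0 in the main pair (median -0.22) and 30 of 31 G2/M genes were (median -0.41), none past log2 1. In bulk samples fewer cells in a phase and less RNA per cell cannot be told apart. In the second pair the medians were -0.73 and -1.38, and 25 of 31 G2/M genes were lower by log2 1 or more, against 1.57% of all members there (204 genes; 290 or 2.24% were higher). PLK1, which encodes a mitotic kinase, was at 18.3 and 11.8 FPKM in the main pair and 11.1 and 3.57 in the second. The mitotic cyclin gene CCNB1 was at 43.1 and 31.1 FPKM, then 34.4 and 11.1. MKI67, a proliferation marker, was nearly level in the main pair at 12.3 and 11.3 FPKM, then 8.27 and 3.30. Whether the G2/M difference depends on enzalutamide was not tested.

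Genes that androgens induce were mostly lower in the main pair, by uneven amounts. Of 24 of them 21 were below 0 (median -0.29), and 2 were past log2 1. These were FKBP5 and NDRG1, which is also on the hypoxia list and is given there. The second pair had 20 below 0 (median -0.43) and 4 past log2 1. FKBP5, the gene of a steroid receptor co-chaperone, was at 35.4 FPKM in control and 13.9 with 10 µM PTUPB, 2.54-fold lower (interval 2.46 to 2.63). It was at 6.21 FPKM with enzalutamide, 4.33 in the 10 µM combination, and 3.64 and 3.73 in the 20 µM libraries, so the 10 µM PTUPB value lay between control and all 4 others. TMPRSS2, a surface protease gene, was at 137 and 84.6 FPKM, then 72.5 and 30.5.

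KLK3, which encodes prostate-specific antigen, was at 105 FPKM in control and 89.7 with 10 µM PTUPB, and at 56.6 and 19.02 in the second pair. Its close paralog KLK2, with which reads may be shared, was at 49.0 and 32.3 FPKM, then 13.4 and 3.51. SLC45A3, a transporter gene, was level in the main pair at 128 and 125 FPKM, then 27.5 and 21.7. SPDEF, a luminal factor gene, was at 73.0 and 41.2 FPKM, then 32.8 and 28.0. STEAP1 and STEAP2, metalloreductase family genes, went the other way in the main pair, at 151 and 214 FPKM (then 191 and 213) and at 87.0 and 125 (then 115 and 140).

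Androgen-repressed genes were higher in 6 of 7 in the main pair (median 0.63). UGT2B15, whose enzyme glucuronidates androgens, was at 9.79 FPKM in control and 27.8 with 10 µM PTUPB, at 22.4 and 30.2 in the second pair, and at 0.183 and 0 in the 20 µM libraries. UGT2B17 was at 2.64 and 8.71 FPKM, then 5.95 and 8.11, and reads may be shared between these genes. FOLH1, which encodes prostate-specific membrane antigen, was at 252 and 389 FPKM, then 426 and 481. The cyclin gene CCND1 was the member below 0. The second pair had 5 of 7 above 0 (median 0.18), and enzalutamide alone against control had a median of 0.75.

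The drug's own targets were little expressed or, as deposited, level. PTGS2, which encodes cyclooxygenase-2, had 0 fragments in both main libraries, a count that allows up to 3, so it was not detectable at this depth. EPHX2, which encodes soluble epoxide hydrolase, was at 8.97 and 8.78 FPKM in the main pair, 8.35 and 7.97 in the second, and 3.26 and 3.62 in the 20 µM libraries. Its fold between control and 10 µM PTUPB was 1.02 with an interval of 0.942 to 1.11. EPHX1, which encodes the microsomal epoxide hydrolase, was at 258 and 373 FPKM in the main pair but at 508 and 442 in the second. CYP2J2, an enzyme gene of epoxy fatty acid synthesis, was at 6.28 and 9.28, then 9.35 and 7.70. Of 20 eicosanoid genes 7 were above 0 and 13 below 0 (median -0.15), none past log2 1. The second pair had 5 above 0 and 15 below 0 (median -0.19). The phospholipase gene PLA2G4D, which is not among these 20, differed more. It was at 3.96 FPKM in control and 0.579 with 10 µM PTUPB, from 608 and 88 fragments (log2 difference -1.65). In the second pair it was also lower, at 1.98 and 0.6997 FPKM.

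Other single genes stood out beyond the lists. MAB21L4 (chr2:240886048-240896889) was at 54.2 FPKM in control and 17.4 with 10 µM PTUPB, at 51.9 with enzalutamide and 16.4 in the 10 µM combination, and at 0.458 and 0.492 in the 20 µM libraries. It was 3.11-fold lower in the main pair (interval 2.93 to 3.30) and 3.16-fold lower in the second. The 2 libraries without PTUPB were thus near each other, as were the 2 with 10 µM. CRISP3, which encodes a secreted cysteine-rich protein, was at 29.8 and 11.5 FPKM, then 42.1 and 8.52, and at 0 in both 20 µM libraries. CKB, the brain-type creatine kinase gene, was at 639 and 313 FPKM, then 442 and 233. PRSS1 (chr7:142749468-142753076), which encodes trypsin-1, was the highest on the other side: 4.58 FPKM in control, 23.4 with 10 µM PTUPB and 53.4 with 20 µM, and 18.7, 45.2 and 28.6 with enzalutamide and in the 10 and 20 µM combinations. Trypsinogen genes are near-identical copies, so its value is uncertain. BGN, which encodes the matrix proteoglycan biglycan, was at 2.71 and 11.96 FPKM, then 14.98 and 26.3.

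Of the remaining lists, cytosolic heat shock genes were below 0 in 18 of 20 (median -0.30) and in 15 of 20 in the second pair (median -0.18), such as the small heat shock protein gene HSPB1 at 312 and 189 FPKM, then 229 and 155. MYC and ribosome biogenesis genes were below 0 in 22 of 27 (median -0.20), then 18 of 27 (median -0.25), and MYC itself was at 98.5 and 71.7 FPKM, then 94.5 and 60.9. Cytosolic ribosomal protein genes were above 0 in 26 of 37 in the main pair (median 0.08), in 1 of 37 there after TPM, and in 0 of 37 in the second pair (median -0.34). The p53 target list was divided, 8 above 0 and 19 below 0 (median -0.10), then 11 and 16 (median -0.03), or 14 and 13 in the second pair after TPM. The cell cycle inhibitor gene CDKN1A was at 32.8 and 25.2 FPKM in the main pair, 48.4 and 50.4 in the second and at 427 and 469 in the 20 µM libraries. Interferon response genes were above 0 in 12 of 18 in both pairs (medians 0.11 and 0.06), and in 3 of 18 in the main pair after TPM. Immediate early genes were above 0 in 4 of 15 (median -0.27), then 8 of 15 (median 0.0056), and metallothionein and zinc genes in 6 of 8 (median 0.40), then 4 of 8 (median -0.02). Housekeeping genes, a reference list that holds PGK1 and GPI, were below 0 in 22 of 30 (median -0.12), then 26 of 30 (median -0.29). The steroid pathway genes NR3C1, the glucocorticoid receptor, and AKR1C3, an androgen-synthesising reductase, were near 0 in the main pair, at 0.0839 and 0.0111 FPKM and at 0.0664 and 0.0597.

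**Figure D4:**
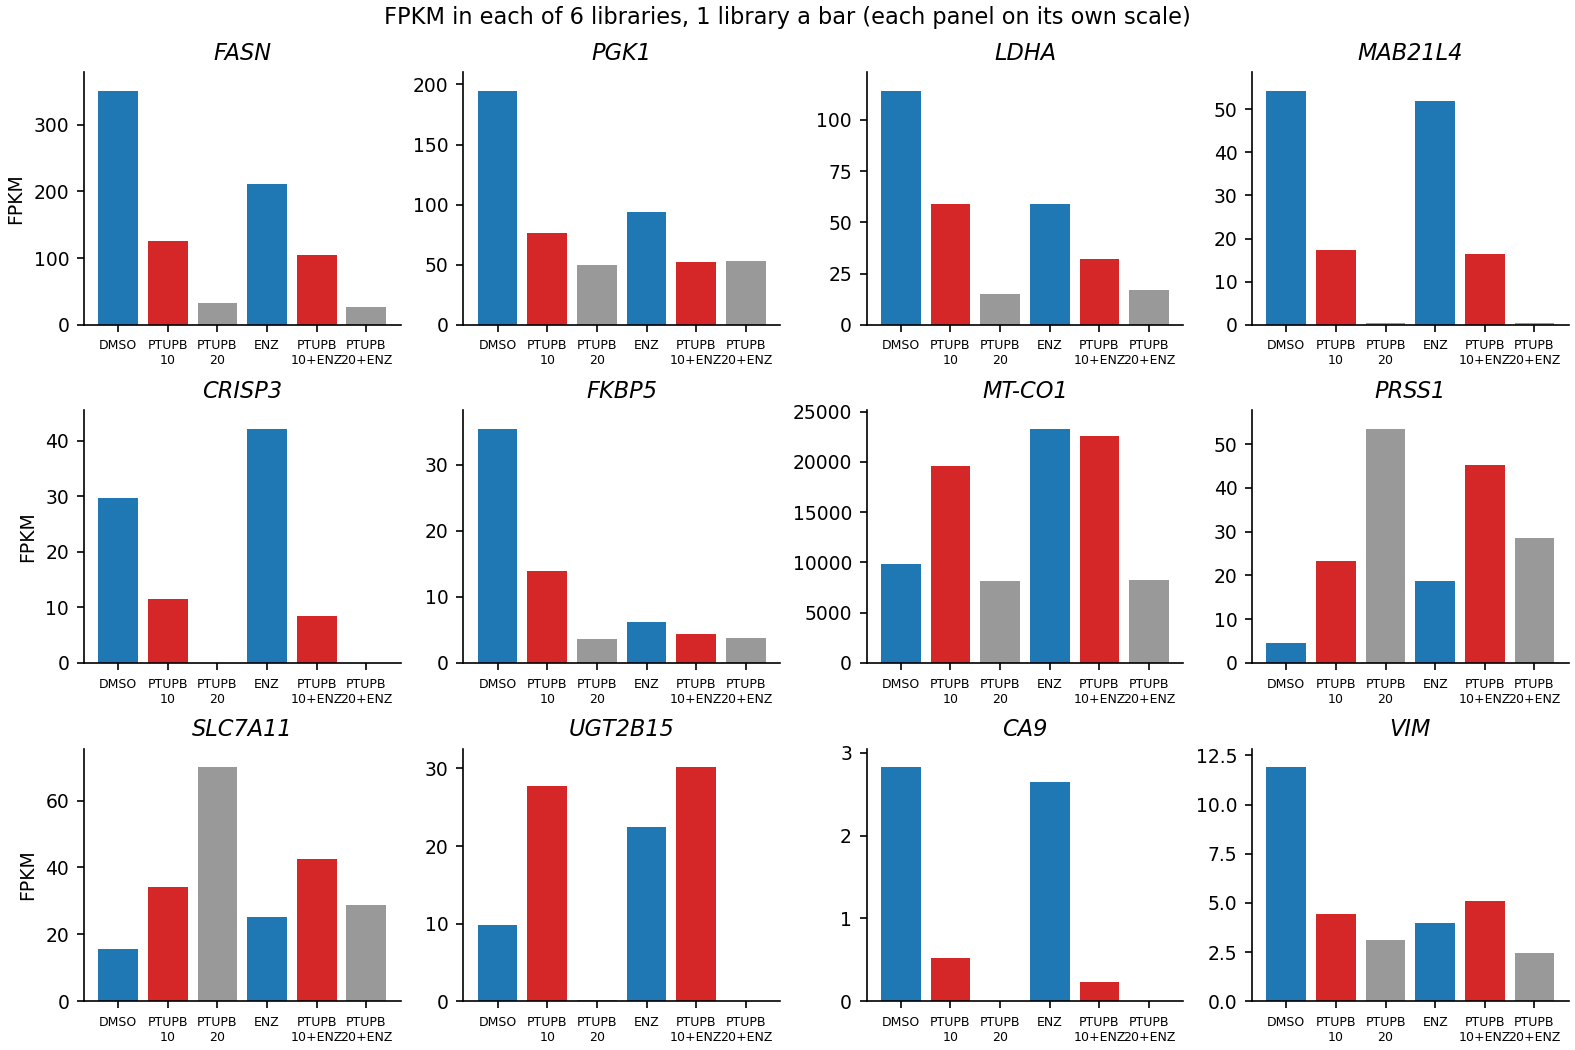
FPKM of 12 genes in each library, 1 library a bar, each panel on its own scale from 0. Blue bars are control and enzalutamide alone, red bars 10 µM PTUPB without and with enzalutamide, and grey bars 20 µM PTUPB without and with it. In FASN, PGK1, LDHA, MAB21L4, CRISP3 and CA9 each red bar is below the blue one to its left, and in VIM only the first is.

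Of the 49 protein-coding genes past log2 1 in the main pair, 9 were past it in the same direction in the pair with enzalutamide. PRSS1, GPNMB, LCN2 and CMKLR2 were higher in both, which is 13.8% of the 29 higher in the main pair and 15.4% of the 26 higher in the second. MAB21L4, FASN, CRISP3, CA9 and H2AC20 were lower in both, which is 25% of the 20 and 4% of the 125. At any size, 25 of the 29 were also above 0 in the second pair, where 39.3% of protein-coding genes were, and 18 of the 20 were below 0, where 60.8% were. The 29 include 8 mitochondrially encoded mRNAs, which differed together. In the second pair these ran only from -0.03 (MT-ATP8) to 0.30 (MT-ND1), so they are not separate cases of agreement. LCN2, the lipocalin-2 gene, was at 1.65 and 4.62 FPKM, then 4.30 and 13.8, and CMKLR2, a chemerin receptor gene, at 0.637 and 2.67, then 1.30 and 5.27.

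**Figure D5:**
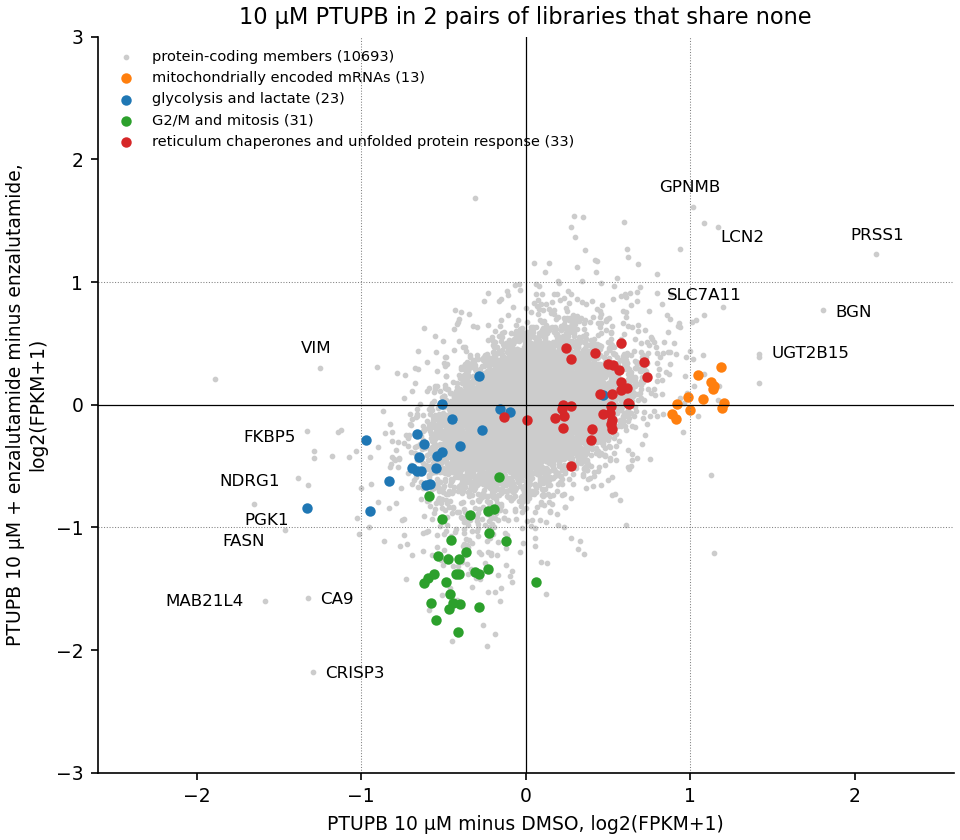
Difference with 10 µM PTUPB in the main pair (horizontal) and in the pair with enzalutamide (vertical), in log2(FPKM+1), 1 point for each of 10693 protein-coding members, with 4 lists in colour. Dotted lines mark log2 1. Mitochondrially encoded mRNAs lie to the right near 0 on the vertical axis, G2/M genes mostly below -1 on it, and MAB21L4, FASN, CA9 and CRISP3 are past the lines on both axes.

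Several genes were higher in control than in every other library, by uneven amounts, among them genes outside the epithelial programme. VIM, which encodes the intermediate filament vimentin, was at 11.9 FPKM in control, 4.42 with 10 µM PTUPB, and 2.46 to 5.11 in the other 4 libraries. IGFBP6, an insulin-like growth factor binding protein gene, was at 4.2002 FPKM in control and at most 0.731 elsewhere. The galectin-1 gene LGALS1 was at 8.16 FPKM in control and at most 4.61 elsewhere. In the second pair VIM was at 3.96 and 5.11 FPKM and IGFBP6 at 0.4997 and 0.731, so neither was lower there, whereas LGALS1 was, at 4.61 and 3.20. The 7 stromal markers summed to 4.12 FPKM in control and 3.82 with 10 µM PTUPB. COL3A1, DCN and LUM were at 0 in the latter, from 106, 2 and 4 fragments in control. COL1A1 (2.38 and 3.11 FPKM) and PDGFRB (0.497 and 0.683) were higher with 10 µM PTUPB, and the other markers lower. The part of the stromal markers in these differences was not tested.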

How the data were processed

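RNA-seq of 6 libraries of a cell line, 1 a group, was used as 1 deposited table of FPKM per gene. Alignment with HISAT and quantification with Cufflinks are named in the submitters' processing notes, and the build, strand setting and versions are not given in the sources used here. The values the authors deposited as FPKM, multiplied by GENCODE 29 exon lengths, were whole multiples of 1 step per library for 100% of values (within 0.05), which gave fragments. Differences were computed as log2(FPKM + 1), with a pseudocount of 1, a mean FPKM minimum of 1 and no test. Overlapping genes and close paralogs are uncertain. Folds carry exact 95% intervals where both libraries held over 3 fragments.

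Named by rule were the 15 largest protein-coding differences in each direction at 5 FPKM or more, up to 3 genes in each of 36 lists, 15 set genes, and the 8 in each direction largest in both pairs; other genes are examples chosen after their values were seen. Members and lists were chosen with earlier results of these data known. Promoters are RefSeq's (GRCh38.p14). Alternatives were other pseudocounts, filters and scalings. Differences and intervals were tested on simulated data. Python 3.11.15, numpy 2.4.6, pandas 2.3.3, scipy 1.17.1 and matplotlib 3.10.9 were used. Some genes that the rule selects are not reported here.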

Additional observations from a re-analysis of the deposited data

Results flagged for a closer look

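In 16 named genes the difference with 10 µM PTUPB was on one side of 0 against control and on the other against enzalutamide alone, with both counting intervals excluding equality. The count is as deposited, and the intervals do not cover a change of scaling. TPM lowers all main-pair ratios by the same factor, so genes a little above 0 in that pair may no longer count. None of these differences between the pairs was tested. H2AC13, a replication-dependent histone gene, was at 1.14 in the main pair and -1.21 in the second, from 38 and 101 fragments in the main pair. VIM was at -1.25 and 0.30, and NR4A1, an immediate early gene, at -0.78 and 0.26. EPHX1 was at 0.53 and -0.20, and CYP2J2 at 0.50 and -0.25.

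The ribosomal protein genes RPS18, RPL37 and RPLP1 were at 0.30 and -0.51, at 0.44 and -0.38, and at 0.30 and -0.18. Also above 0 first and then below 0 were COX6C (0.39 and -0.22), CA12 (0.26 and -0.33), CPE (0.63 and -0.11), ITGA5 (0.52 and -0.12) and IFI6 (0.41 and -0.14). Below 0 first and then above 0 were the autophagy genes WIPI1 (-0.37 and 0.47) and GABARAP (-0.48 and 0.34), and the mitochondrial protease gene LONP1 (-0.49 and 0.14).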

How the results depend on the processing

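As deposited, the counts past log2 1 were 210 higher and 100 lower in the main pair, and 290 and 204 (58.7% higher) in the second. In the main pair they were 384 and 249 with a pseudocount of 0.1, 44 and 13 with 5, 444 and 303 with no filter, 59 and 15 (79.7% higher) at a mean FPKM of 5 or more, 342 lower (39.9% higher, median -0.33) after TPM, and 343 and 226 after scaling without mitochondrial genes. The second pair gave 614 and 376 with a pseudocount of 0.1, 40 and 43 (48.2% higher) with 5, 614 and 344 with no filter, 52 and 96 (35.1% higher) at 5 FPKM, 551 higher after TPM, and 714 higher (73.1%, median 0.10) without mitochondrial genes. A minimum of 50 fragments, chosen after seeing the data, gave 65 and 28 in the main pair and 80 higher (35.7%) in the second. The median of the ATF4 list in the main pair turned to -0.087 after TPM. Relative to all members, the main medians of the fatty acid synthesis and carbonic anhydrase lists changed side with the scaling. Median of ratios gave 218 and 99, then 308 and 184, all within 1.5 times the main counts. Of the differences of named genes in both pairs, TPM moved 168 and left 98 the same, and median of ratios moved 39 and left 227. After scaling without mitochondrial genes, the main-pair median of all members was -0.04. Counts above 0 were then as deposited for the ATF4 (28 of 36), ribosomal protein (26 of 37), interferon (12 of 18) and nuclear respiratory chain (16 of 39) lists. The mitochondrially encoded mRNAs summed to 46488 FPKM in control and 94507.5 with 10 µM PTUPB. The cause of the shifts between scalings was not tested. No paired analysis was possible because each group has 1 library, which also leaves no replicate to leave out.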

Other observations

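Genes of peptide hormones and of an adrenergic receptor differed as well. GCG, the proglucagon gene, was at 7.43 FPKM in control and 16.1 with 10 µM PTUPB, at 12.2 and 13.7 in the pair with enzalutamide, and at 0.0532 and 0 in the 20 µM libraries. NPPC, which encodes C-type natriuretic peptide, was at 12.4 and 4.36 FPKM, then 2.41 and 1.17, and lower still at 20 µM without enzalutamide (0.119). ADRA2A, an adrenergic receptor gene, was higher in both pairs, at 4.23 and 8.29 FPKM, then 5.97 and 11.4, and at 0.644 and 0 in the 20 µM libraries. GCG, ADRA2A and UGT2B15 were thus higher at 10 µM than in control and near 0 at 20 µM, whereas GPNMB and LCN2 were higher at 10 µM and higher again at 20 µM (119 and 78.3 FPKM without enzalutamide). The 20 µM and 10 µM libraries were both read against 1 control library.

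S100P, which encodes a calcium-binding protein, gave nearly the same values in both pairs, at 13.9 and 26.4 FPKM, then 13.7 and 26.6. PYGL, the liver-type glycogen phosphorylase gene, did so on the lower side, at 11.4 and 5.97 FPKM, then 11.7 and 6.08. The phospholipase gene PLA2G2A, which frees arachidonic acid, was level in the main pair at 6.47 and 7.17 FPKM and lower in the second, at 29.3 and 11.4.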
